A study of Mus musculus with 6 samples.

Results

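Homologous recombination copies an intact sister strand to mend a broken chromosome, the Fanconi pathway unhooks strands that are crosslinked to each other, and the checkpoint kinases hold the cell cycle while either is under way. The 34 genes described here carry out these steps in the mouse. They were chosen by symbol for their roles, with earlier results of these data known, and all 34 were found among the 24091 genes of the deposited table. They were followed in hematopoietic stem cells (HSCs), from which all blood lineages are renewed, in a series whose title concerns miR-126 and the vessels of the ageing marrow. Aged HSCs (20 months) were profiled in 3 libraries, aged 1 to aged 3, and young HSCs (2 months) in 3, young 4 to young 6. All were labelled wt and sorted as lineage-Sca-1+c-Kit+CD150+CD48-, and no strain, sex, treatment or transgene was given. Each group was pooled, with 4 aged and 30 young mice stated, and whether these numbers are per sample or per group is not said. The p-values below measure only how far these pools differ from one another, and that spread may be technical in part.

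As background, a double-strand break is first bound by the MRE11-RAD50-NBS1 complex, which recruits the kinase ATM. Nucleases led by CtIP (gene Rbbp8) and EXO1 then trim the ends to single strands, which the RPA trimer coats and which call the kinase ATR and its effector CHK1. BRCA1 with BARD1, PALB2 and BRCA2 then prepare the coated strands for pairing with the sister, in which XRCC2, XRCC3, RAD54 and their relatives also take part. In the Fanconi pathway a core complex attaches ubiquitin to the FANCD2-FANCI pair. The pairing step needs a sister chromatid, and many of the genes are transcribed mostly in S and G2 phase. Loss of Fanconi genes is known for bone marrow failure in humans and for weakened HSCs in mice.

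Library totals ran from 16452829 to 21918658 counts. Levels are given in CPM, counts scaled to a common library total after TMM scaling, a correction for composition. One library, young 4, stood apart in measures of the whole library. Its log2 CPM correlated across genes with young 5 and young 6 at a Pearson's r of 0.951 and 0.948, while that pair reached 0.989. Its TMM factor was 0.765, against 1.04 to 1.08 in the other 5 libraries, and Actb took 4.06% of its counts, against 0.555% to 1.36%. Results are therefore given with and without young 4. Aged 2 had 20918 genes with at least 1 count, against 16084 to 17057 in the other 5 libraries. Some results are also given without both young 4 and aged 2. Of the sort markers, Kit had 976 ± 99.0 CPM in aged and 632 ± 282 CPM in young HSCs (SD, n = 3 each). The groups overlapped for Kit, and young 4 was lowest at 320 CPM, against 709 and 868 CPM in young 5 and young 6. Its log2 fold change (aged minus young) was 0.63 with all libraries and 0.28 without young 4 (adjusted p = 0.305 and 0.273 by edgeR). Slamf1, which encodes CD150, had 98.8 ± 18.9 CPM in aged and 64.3 ± 1.95 CPM in young HSCs. Ly6a, which encodes Sca-1, had 121 ± 50.8 CPM in aged and 39.9 ± 9.58 CPM in young HSCs and was the sort marker called higher (adjusted p = 0.0435 by edgeR). Cd48, which the gate excludes, was at 1.40 ± 1.04 CPM in aged HSCs, against 10.8 ± 3.17 CPM in young HSCs.

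Aged HSCs held less RNA of 6 of the 34 genes, and of none did they hold more. The 6 were Chek1, the effector kinase of the replication checkpoint, Blm, the helicase mutated in Bloom syndrome, Bard1 and Brca2 of the BRCA group, and Rad54l and Rad54b, which encode motor proteins of recombination. Folds ran from 1.77-fold lower for Blm to 3.45-fold lower for Chek1. All 34 genes had enough counts to be tested. The test was edgeR's quasi-likelihood test over 13413 genes, with an adjusted p of 0.05 as the threshold. Of all genes tested, 1.5% were called lower in aged HSCs (201) and 4.26% higher (571). The 34 genes had a median log2 fold change (aged minus young) of -0.60, against 0.04 over all genes tested, and 30 of the 34 were below 0, against 47.3% of all genes tested.

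The difference was spread over more genes than the 6 called. At an unadjusted p under 0.05, 21 of the 34 were lower and none higher, where 11.1% of all genes tested were lower. In 23 of the 34, every aged library lay below every young library, which held for 17.6% of all genes tested; in none did every aged library lie above every young one, which held for 19% of all genes tested. The calls lay close to the threshold. Chek1, the last to pass, had an adjusted p of 0.0486 and Rpa2, the first to miss it, 0.0502. In bulk RNA, fewer cells that transcribe a gene and less of its RNA per cell cannot be told apart.

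**Figure D1:**
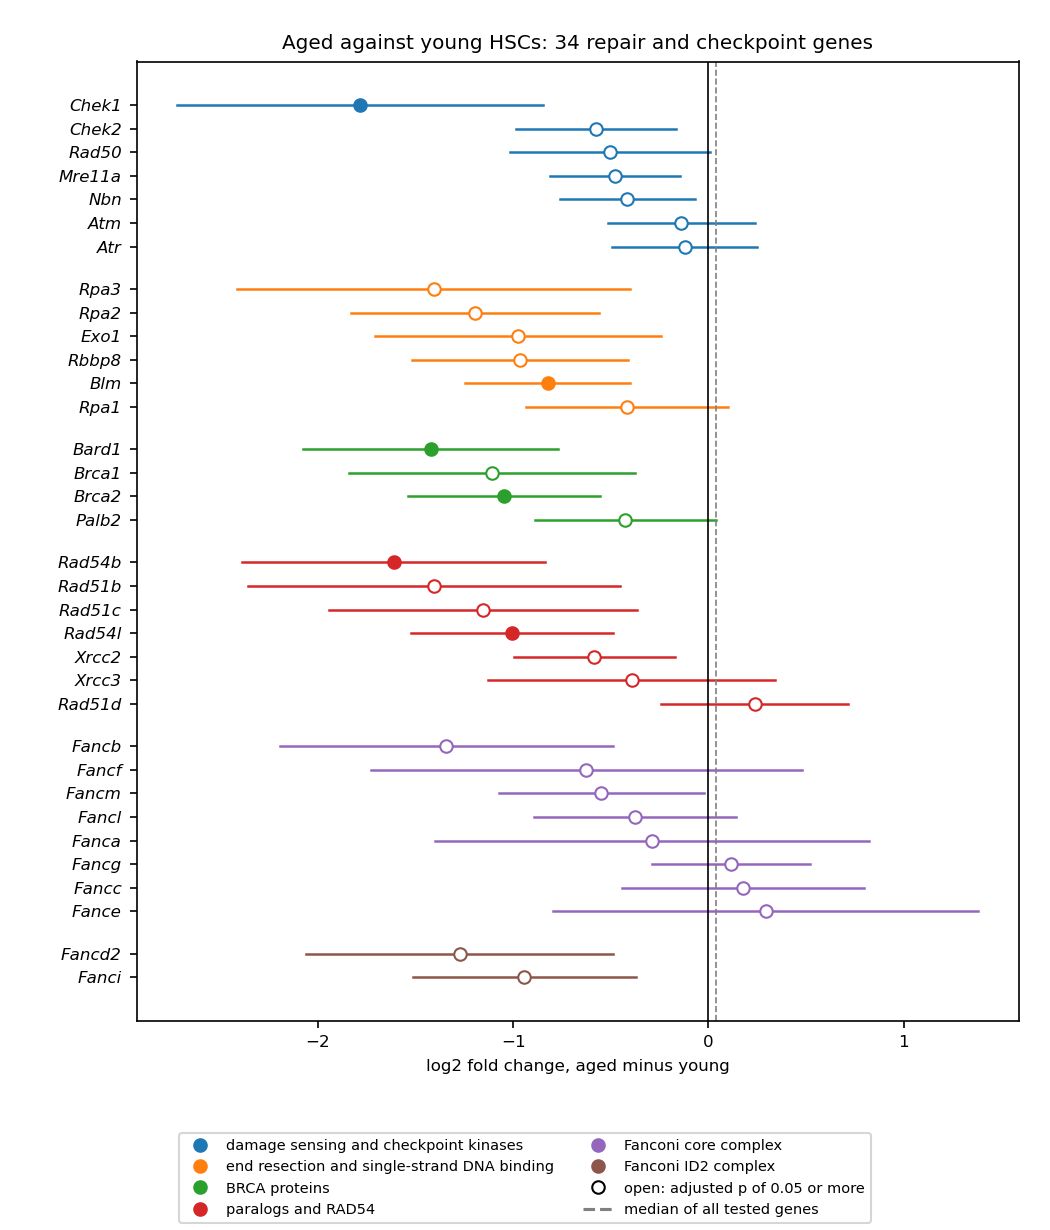
Log2 fold change (aged minus young) of each of the 34 genes with its 95% confidence interval, grouped by role; filled circles passed an adjusted p of 0.05 and the dashed line is the median of all genes tested. The 6 filled circles all lie below 0, and the 4 points above 0 (Rad51d, Fancc, Fance and Fancg) have intervals that include 0.

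The calls rested on all libraries except young 4. Without young 4, 8 of the 34 were called lower, the same 6 with Rpa1 and Rpa2, where 2.54% of all genes tested were called lower. Their adjusted p-values then ran from 0.0288 to 0.0467 for the 6, and the median log2 fold change over the 34 was -0.67. Without any single one of aged 1, aged 2, aged 3, young 5 or young 6, 0 of the 34 passed edgeR's test. Lower calls also became few over all genes tested, at 0.262% (aged 1 left out), 0.0441% (aged 2), 0.022% (aged 3), 0.0218% (young 5) and 0.0364% (young 6). In these 5 fits the adjusted p of the 6 genes ran from 0.0587 to 0.177, and 17 to 22 of the 34 were lower at an unadjusted p under 0.05. The direction of the 6 genes held in each fit. Leaving out a library could hardly change it, because no aged library reached a young one in these genes. Without both young 4 and aged 2, 6 were called, 5 of them among the 6 (1.6% of all genes tested). DESeq2 called 19 of the 34 lower with all 6 libraries (5.36% of all genes tested), limma-voom 6 (1.77%) and limma-voom with quality weights 25 (13.2%).

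Among the genes of damage sensing and the checkpoint kinases, Chek1 was the 1 gene called, with the largest fold of the 34. Chek1 (mm10 chr9:36708482-36726658, minus strand) encodes the kinase CHK1, which slows replication when forks stall. It had 22.4, 26.0 and 15.1 CPM in aged 1, aged 2 and aged 3, against 119, 52.3 and 48.3 CPM in young 4, young 5 and young 6. The groups did not overlap, and young 4 was more than 2 times either of the other young libraries. The log2 fold change was -1.78 ± 0.40 (SE; adjusted p = 0.0486 by edgeR), and -1.27 without young 4 (adjusted p = 0.0351).

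The upstream kinases missed the threshold. Atr, which encodes the kinase that activates CHK1, averaged 54.6 ± 0.442 CPM in aged and 59.4 ± 7.91 CPM in young HSCs (SD, n = 3 each), and Atm 60.7 ± 2.80 CPM in aged and 66.8 ± 9.05 CPM in young HSCs. Their groups overlapped, and the 95% intervals of the log2 fold change were -0.50 to 0.25 for Atr and -0.52 to 0.24 for Atm. Chek2, which encodes the effector kinase of ATM, had 51.9, 50.6 and 46.1 CPM in the aged libraries, against 88.5, 66.6 and 66.4 CPM in the young libraries. Its groups did not overlap, but it missed the threshold (log2 fold change -0.57 ± 0.17, adjusted p = 0.101 by edgeR). Of the break-binding complex, Mre11a had a log2 fold change of -0.48, Nbn of -0.42 and Rad50 of -0.50, with adjusted p-values by edgeR of 0.0959, 0.143 and 0.206. In each of these 3 genes all aged libraries lay below all young ones.

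Of the genes of end resection and single-strand binding, Blm was called. Blm (chr7:80454993-80535119, minus strand) encodes a helicase that works with EXO1 in resection and dissolves recombination intermediates. It had 43.8, 43.0 and 33.3 CPM in aged 1, aged 2 and aged 3, against 61.6, 74.9 and 75.8 CPM in young 4, young 5 and young 6. Here young 4 was the lowest young library, and the groups did not overlap. The log2 fold change was -0.82 ± 0.18 (adjusted p = 0.0457 by edgeR) and -0.94 without young 4. Rbbp8, which encodes the resection factor CtIP, had 54.1, 52.6 and 38.0 CPM in the aged libraries, against 121, 84.1 and 77.9 CPM in the young libraries, without overlap (-0.97 ± 0.23, adjusted p = 0.0601). Exo1, a nuclease gene, ran over a wider span in aged libraries, at 34.1, 22.4 and 14.7 CPM, against 39.5, 52.8 and 47.6 CPM in young ones (adjusted p = 0.114).

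The genes of RPA, the trimer that coats single-stranded DNA, missed the threshold with all libraries. Rpa2 had 105, 126 and 94.4 CPM in aged 1, aged 2 and aged 3, against 349, 199 and 197 CPM in young 4, young 5 and young 6, with a log2 fold change of -1.20 ± 0.27 (adjusted p = 0.0502; -0.89 and 0.0302 without young 4, by edgeR). Rpa3 had 63.5, 70.6 and 43.5 CPM in the aged libraries, against 270, 102 and 99.3 CPM in the young libraries. Its log2 fold change of -1.41 became -0.79 without young 4, and its adjusted p was 0.101 with that library and 0.0716 without it. Rpa1, the large subunit, had 252, 241 and 214 CPM in the aged libraries, against 228, 355 and 360 CPM in the young libraries. Young 4 was thus the highest young library for Rpa2 and Rpa3 and the lowest for Rpa1, which was at -0.42 (adjusted p = 0.274) with all libraries and -0.62 (adjusted p = 0.0362) without young 4. Whether the subunits differed from each other was not tested.

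In the BRCA group, 2 of 4 genes were called and all 4 had aged libraries below young ones. Bard1 (chr1:71027535-71102972, minus strand), the partner of BRCA1 in a ubiquitin ligase, had 11.2, 15.4 and 8.36 CPM in aged 1, aged 2 and aged 3, against 38.1, 27.5 and 27.9 CPM in young 4, young 5 and young 6. It had the smallest p of the 34 genes, with a log2 fold change of -1.42 ± 0.28 (adjusted p = 0.0371 by edgeR), or 2.68-fold lower. Brca2 (chr5:150522621-150570146, plus strand), the breast and ovarian cancer gene that acts on resected strands, had 35.7, 46.6 and 35.7 CPM in the aged libraries, against 100.4, 74.5 and 69.0 CPM in the young libraries. It was 2.07-fold lower (-1.05 ± 0.21, adjusted p = 0.0382 by edgeR). Brca1 had 22, 18.9 and 9.52 CPM in the aged libraries, against 38.6, 37.1 and 33.1 CPM in the young libraries, a log2 fold change of -1.11 with an adjusted p of 0.0842. Aged 3 lay well below the other aged libraries, and no aged library reached a young one. Palb2, which bridges BRCA1 and BRCA2, had the smallest difference of the group (-0.43 ± 0.20, adjusted p = 0.227).

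Among 7 genes that act beside the BRCA group, both RAD54 genes were called and none of the 5 paralogs Rad51b, Rad51c, Rad51d, Xrcc2 and Xrcc3 was. Rad54l (chr4:116096955-116123690, minus strand) encodes RAD54, a DNA motor of recombination. It had 60.2, 57.1 and 36.0 CPM in aged 1, aged 2 and aged 3, against 104, 105 and 98.1 CPM in young 4, young 5 and young 6. The young libraries lay close together, and the gene was 2.01-fold lower in aged HSCs (-1.01 ± 0.22, adjusted p = 0.0455 by edgeR). Rad54b (chr4:11558920-11615808, plus strand), its relative, had 16.3, 20.5 and 10.4 CPM in the aged libraries, against 65.9, 41.6 and 36.8 CPM in the young libraries and was 3.06-fold lower (-1.61 ± 0.33, adjusted p = 0.0397 by edgeR). Both share exon bases with other genes in GENCODE M21, Rad54b 35.8% of its own with Fsbp on the same strand and Rad54l 15.4% with Lrrc41 on the opposite one. Reads there cannot be assigned to 1 gene, on the opposite strand because the kit keeps no strand, so these values are uncertain. The same holds for Fancc (16.4%), Fanci (15.95%), Fancf (14.96%), Fancl (13.7%) and Fanca (10.5%), each overlapped on the opposite strand.

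The products of the 5 paralogs form a pair of complexes with each other and act in recombination. Rad51b had 10.6, 12.7 and 7.20 CPM in aged 1, aged 2 and aged 3, against 43.6, 19.7 and 17.8 CPM in young 4, young 5 and young 6, and its log2 fold change of -1.41 became -0.90 without young 4 (adjusted p = 0.0898 and 0.0897 by edgeR). Rad51c was at -1.15 (adjusted p = 0.0909) and Xrcc2 at -0.58 (adjusted p = 0.0984). In these 3 genes no aged library reached a young one. Rad51d had 60.2, 49.2 and 51.3 CPM in the aged libraries, against 34.6, 53.0 and 48.8 CPM in the young libraries. Its groups overlapped and the 95% interval of its log2 fold change, -0.24 to 0.72, included 0. Xrcc3 also overlapped, with young 4 at 15.9 CPM and young 5 and young 6 at 32.6 and 33.0 CPM (-0.39, adjusted p = 0.441, and -0.69, adjusted p = 0.0741, without young 4).

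None of the 8 genes of the Fanconi core complex was called, and their median log2 fold change was -0.33. Fancb, an X-linked gene whose product binds FANCL in the catalytic part of the complex, had the smallest p among them. It had 11.8, 11.7 and 7.94 CPM in aged 1, aged 2 and aged 3, against 41.0, 21.4 and 17.3 CPM in young 4, young 5 and young 6, a log2 fold change of -1.34 that missed the threshold (adjusted p = 0.0777 by edgeR; -0.91 and 0.0691 without young 4). Fancm, a DNA translocase gene that anchors the complex, also had aged libraries below young ones (-0.55 ± 0.22, adjusted p = 0.186). The other 6 overlapped. Fancl, which encodes the ubiquitin ligase itself, was at -0.37 (95% interval -0.89 to 0.14). Fancg was at 0.12 (-0.29 to 0.52), Fancc at 0.18 (-0.44 to 0.80), Fance at 0.29 (-0.80 to 1.38), Fanca at -0.29 (-1.40 to 0.82) and Fancf at -0.62 (-1.73 to 0.48). Without young 4, Fancc, Fance and Fancg were just below 0, and the median of the 8 genes was -0.18. Fancf rested on 21 to 40 counts a library, the fewest of the 34, and for Fance and Fanca the wide intervals come with 1 high library, aged 1, at 22.3 and 8.82 CPM.

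The FANCD2-FANCI pair, which the core complex modifies, had non-overlapping groups in both genes. Fancd2 had 20.0, 16.8 and 8.12 CPM in aged 1, aged 2 and aged 3, against 32.2, 41.0 and 35.5 CPM in young 4, young 5 and young 6. Fanci had 22.3, 21.8 and 13.3 CPM in the aged libraries, against 32.2, 39.3 and 38.8 CPM in the young libraries. The log2 fold changes were -1.27 ± 0.33 and -0.94 ± 0.24, and neither passed edgeR's test (adjusted p = 0.0719 and 0.0688; 0.0666 and 0.0527 without young 4). In both, young 4 was the lowest young library and aged 3 the lowest aged library.

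**Figure D2:**
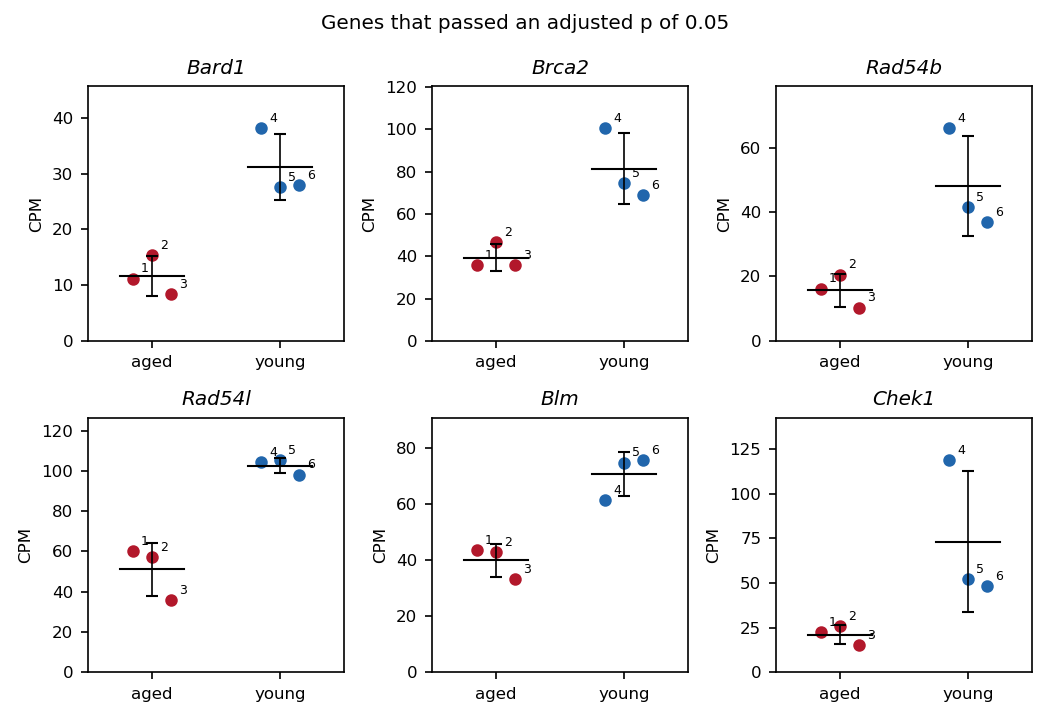
Level in CPM (scaled counts, linear axis from 0) of the 6 genes that passed the threshold, with 1 point per library labelled by its number, a line at the group mean and bars of 1 SD. In each panel the 3 aged points lie below the 3 young points, and young 4 is the highest young point for Bard1, Brca2, Rad54b and Chek1 but not for Rad54l and Blm.

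The promoters of 5 of the 6 called genes are shown because these genes were lower together; for Rad54b the RefSeq table used here had no entry. They are the 250 bases before the start site in RefSeq (build GRCm38.p6, the same assembly as mm10), read in the direction of the gene. Rpa2 is added as the uncalled gene with the smallest p. Capitals mark matches to 3 motifs, on either strand: the E2F motif of genes of S phase (TTCCCGC or TTCGCGC or TTGCCGC or TTGGCGC), the CHR motif of genes of G2 and mitosis (TTTGAA or TTCGAA) and the CCAAT box. No match overlapped another motif in these windows.
Chek1, chr9:36726659-36726908, minus strand: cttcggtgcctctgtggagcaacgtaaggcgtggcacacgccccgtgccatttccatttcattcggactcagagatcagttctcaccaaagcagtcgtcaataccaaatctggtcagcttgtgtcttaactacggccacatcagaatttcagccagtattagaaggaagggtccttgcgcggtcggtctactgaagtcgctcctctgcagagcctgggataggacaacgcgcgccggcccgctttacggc
Blm, chr7:80534999-80535248, minus strand: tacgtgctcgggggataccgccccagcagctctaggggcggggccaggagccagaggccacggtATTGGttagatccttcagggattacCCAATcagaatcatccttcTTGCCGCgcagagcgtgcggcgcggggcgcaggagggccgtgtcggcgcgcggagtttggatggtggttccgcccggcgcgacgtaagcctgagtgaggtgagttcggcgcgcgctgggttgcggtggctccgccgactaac
Bard1, chr1:71102973-71103222, minus strand: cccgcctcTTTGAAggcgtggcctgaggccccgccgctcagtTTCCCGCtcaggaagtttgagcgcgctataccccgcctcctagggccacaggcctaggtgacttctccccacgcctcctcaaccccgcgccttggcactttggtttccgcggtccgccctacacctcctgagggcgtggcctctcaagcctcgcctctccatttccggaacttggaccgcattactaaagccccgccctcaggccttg
Brca2, chr5:150522371-150522620, plus strand: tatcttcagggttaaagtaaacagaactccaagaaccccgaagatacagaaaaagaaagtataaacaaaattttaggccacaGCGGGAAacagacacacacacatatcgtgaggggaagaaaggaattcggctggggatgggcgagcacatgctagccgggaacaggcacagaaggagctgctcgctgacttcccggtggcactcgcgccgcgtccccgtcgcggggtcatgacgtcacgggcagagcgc
Rad54l, chr4:116123691-116123940, minus strand: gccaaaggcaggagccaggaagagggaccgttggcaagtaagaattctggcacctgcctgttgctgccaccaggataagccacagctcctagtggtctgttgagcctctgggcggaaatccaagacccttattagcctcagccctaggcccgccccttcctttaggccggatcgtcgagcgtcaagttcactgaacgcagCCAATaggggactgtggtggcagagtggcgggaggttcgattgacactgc
Rpa2, chr4:132768110-132768359, plus strand: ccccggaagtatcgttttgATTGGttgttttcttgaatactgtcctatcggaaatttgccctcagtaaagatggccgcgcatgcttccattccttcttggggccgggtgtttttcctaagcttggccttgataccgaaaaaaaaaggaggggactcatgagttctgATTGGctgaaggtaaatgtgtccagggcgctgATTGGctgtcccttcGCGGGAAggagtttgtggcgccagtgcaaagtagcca

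An E2F match stood in the windows of Blm (positions -142 to -136 from the start site), Bard1 (-208 to -202), Brca2 (-168 to -162) and Rpa2 (-37 to -31). Bard1 also held a CHR match (-242 to -237). Rpa2 held 3 CCAAT boxes, Blm 2 and Rad54l 1, and the window of Chek1 held none of these letters. The start site of Blm in RefSeq lies 121 bases inside the deposited gene, and the other 5 coincide with the deposited start. Of the 34 genes, 26 had a promoter in the RefSeq table. An E2F match was found in 11 of the 26 (42.3%), against 14.2% of the 10393 promoters of tested genes, a CCAAT box in 17 (65.4%, against 36.6%) and a CHR match in 2 (7.69%, against 12.4%). A match describes letters in a window and is not a bound site.

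Levels of the subunits can be compared with each other only per length, here as CPM per kb of the gene length the authors deposited. On that scale the RPA genes had the highest levels. In aged HSCs Rpa3 had 93.4 ± 22.1, Rpa1 76.3 ± 6.38 and Rpa2 51.4 ± 7.64 CPM per kb, and in young HSCs Rpa3 had 248 ± 154, Rpa1 102 ± 24.1 and Rpa2 118 ± 41.4 CPM per kb (SD, n = 3 each). In aged HSCs Rpa2 was the lowest of the trimer by more than its SD. The young spread came with young 4, where Rpa3 had 426, Rpa2 166 and Rpa1 73.9 CPM per kb. In young 5 and young 6 Rpa3 had 161 and 157, Rpa1 115 and 116 and Rpa2 94.2 and 93.6 CPM per kb, the same order as in aged HSCs by mean. Of the break-binding complex, Rad50 stood at 28.1 ± 3.93 CPM per kb in aged and 39.9 ± 9.34 CPM per kb in young HSCs, and Nbn at 24.7 ± 1.48 CPM per kb in aged and 33.0 ± 2.50 CPM per kb in young HSCs. Mre11a, the nuclease of that complex, had 10.7 ± 0.458 CPM per kb in aged and 14.8 ± 0.942 CPM per kb in young HSCs, below both partners in either group.

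Partners in a complex did not all stand at the same level. Brca1 and Bard1, whose products form a heterodimer, had 2.04 ± 0.788 and 2.14 ± 0.650 CPM per kb in aged HSCs, against 4.40 ± 0.350 and 5.73 ± 1.10 CPM per kb in young HSCs. The aged levels of the pair differed by less than their SD, and the young levels by more. Fancd2 and Fanci had 2.35 ± 0.968 and 3.67 ± 0.974 CPM per kb in aged HSCs, against 5.69 ± 0.699 and 7.05 ± 0.761 CPM per kb in young HSCs. Among the checkpoint kinases, Chek2 stood at 22.2 ± 1.37 CPM per kb in aged and 33.1 ± 5.68 CPM per kb in young HSCs, and Chek1 at 5.46 ± 1.43 in aged and 18.8 ± 10.2 CPM per kb in young HSCs. Atm and Atr lay between 4.60 and 5.52 CPM per kb in either group. The lowest levels belonged to Rad51c, at 0.615 ± 0.181 CPM per kb in aged and 1.38 ± 0.372 CPM per kb in young HSCs, and to Fancf and Fanca.

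The libraries of 1 group were not alike. Aged 3 held the lowest value of all 6 libraries for 26 of the 34 genes, and young 4 held the highest for 20. For 8 genes young 4 was over 1.5 times both other young libraries, and for 4 genes it was below both by that factor. The median deviation of the 34 genes from their mean over libraries, in log2(CPM + 0.5), came to -0.15, -0.28 and -0.59 for aged 1, aged 2 and aged 3, against 0.42, 0.32 and 0.25 for young 4, young 5 and young 6. The groups did not overlap on this measure, and the gap between aged 1 and young 6 was smaller than the range within aged HSCs. Summed over the 34 genes the level was 1489, 1480 and 1230 CPM in aged 1, aged 2 and aged 3, against 2589, 2119 and 2097 CPM in young 4, young 5 and young 6.

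**Figure D3:**
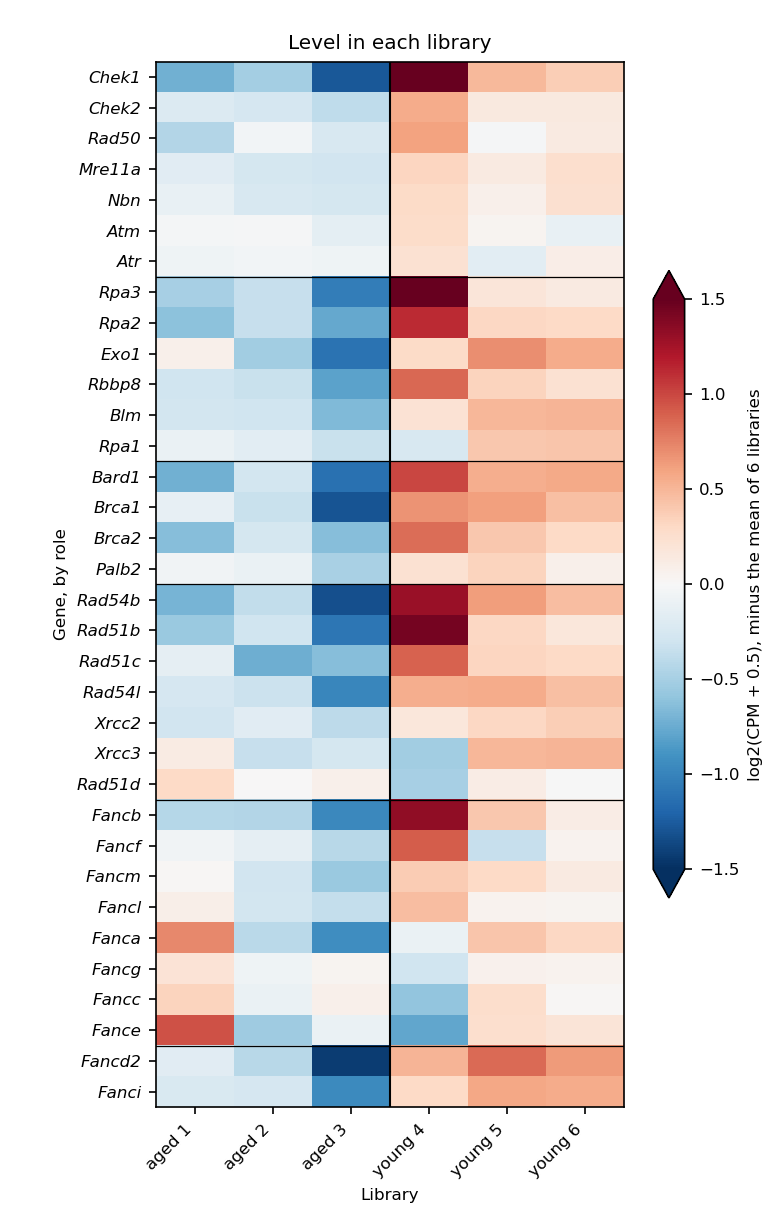
Deviation of each of the 34 genes (rows, by role) in each library (columns, 3 aged then 3 young) from its mean over the 6 libraries, in log2(CPM + 0.5); colours saturate at 1.5. Aged columns are mostly blue and darkest in aged 3, young columns mostly red and darkest in young 4, while Rad51d, Xrcc3, Fancg, Fancc and Fance have their lowest value in young 4.

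Base composition moved with the fold change. The 4 genes with a log2 fold change above 0 had transcripts of 50.6% to 61.4% GC, and the 6 called genes 41.0% to 47.2%. Over the 34 genes Pearson's r of log2 fold change and GC content was 0.52 and Spearman's rho 0.42; the points share their libraries and scaling, and genes are not replicates. The trend ran through the whole table, where the median log2 fold change was -0.17 in the fifth of genes with the least GC and 0.33 in the fifth with the most. In a fit that removed the trends with GC content and length per library, 7 of the 34 were called lower (2.96% of all genes tested) and 0 higher, with a median of -0.62. Of the 6, Blm lost its call (adjusted p = 0.0606 by edgeR) and 5 kept it, and Rbbp8 (0.0405) and Rpa2 (0.0392) passed. Rpa3, at 34.2% the poorest in GC of the 34, was at -0.53 in that fit, against -1.41 before. Any further part of base composition in these results was not tested.

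**Figure D4:**
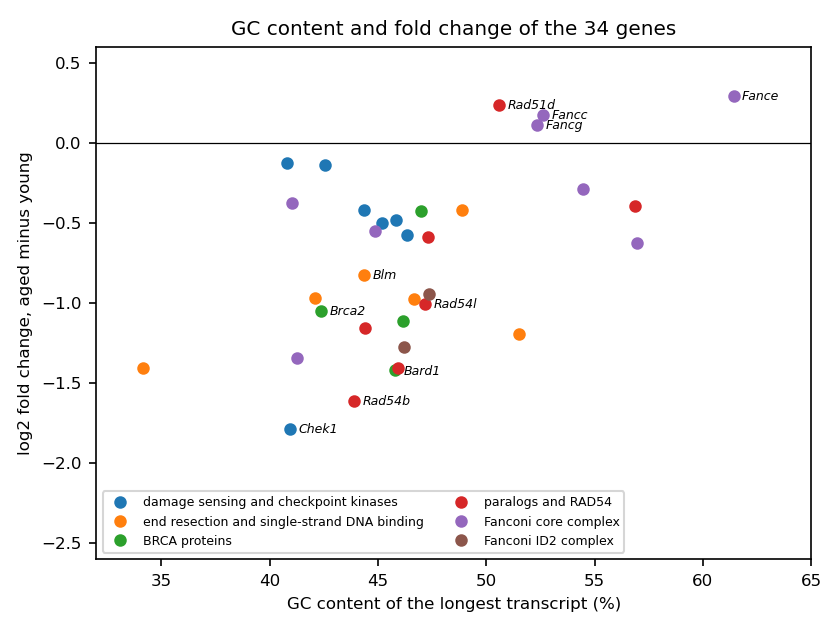
Log2 fold change (aged minus young) of the 34 genes against the GC content of the longest transcript in percent, coloured by role. The 4 points above 0 lie between 50.6% and 61.4% GC, and the 6 called genes between 41.0% and 47.2%; both sets are labelled by name.

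Other genes of the same pathways gave 4 calls of 51, all lower in aged HSCs, where 1.5% of all genes tested were called lower. They were Gen1, which cuts recombination junctions, and Rmi2, a partner of BLM, with Topbp1, the activator of ATR, and Tipin, of the fork protection complex. Rmi2 had 3.88, 4.54 and 2.65 CPM in aged 1, aged 2 and aged 3, against 14.1, 12.1 and 10.4 CPM in young 4, young 5 and young 6, without overlap (3.30-fold lower, adjusted p = 0.0233 by edgeR). Gen1 was 3.17-fold lower, Tipin 3.06-fold and Topbp1 1.78-fold, with adjusted p-values of 0.0371, 0.0422 and 0.0423. At an unadjusted p under 0.05, 21 of the 51 were lower and 2 higher (11.1% and 13.9% of all genes tested). The median log2 fold change was -0.43, and -0.32 without young 4, where 7 were called lower (2.54% of all genes tested). Without any single one of aged 2, aged 3, young 5 or young 6 none was called by edgeR, and without aged 1 there was 1.

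Repair pathways that do not need a sister strand gave no calls by edgeR with the settings reported. Of 12 genes of end joining, which rejoins broken ends directly, an unadjusted p under 0.05 was reached by 3 lower and 1 higher, and the median log2 fold change was -0.12. Among all genes tested the shares at that level were 11.1% lower and 13.9% higher. The smallest p belonged to Polq, the polymerase of a backup route of joining, at 9.60 ± 2.13 CPM in aged HSCs, against 24.4 ± 9.13 CPM in young HSCs (SD, n = 3 each; adjusted p = 0.0573), and to Polm, at 6.97 ± 0.724 CPM in aged HSCs, against 3.06 ± 1.35 CPM in young HSCs (adjusted p = 0.113). In the fit corrected for GC content and length, Polq was called lower (adjusted p = 0.0317 by edgeR) and the median of the 12 was 0.14. Of 22 genes of excision and mismatch repair, 3 were lower and 0 higher at that unadjusted level, near the share over all genes for the lower ones, with a median of -0.14. Apex1 and Pms2 had the smallest p there, at log2 fold changes of -0.44 and -0.38 (adjusted p = 0.144 and 0.150). Whether these lists differ from the 34 genes was not tested.

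Genes of cell division were lower in the same libraries. Of 31 genes of DNA replication, 10 were called lower and 0 higher, with a median log2 fold change of -1.03, and of 22 genes of G2 and mitosis, 9 were called lower and 0 higher, with a median of -1.83, where 1.5% of all genes tested were called lower. Without young 4 the lower calls were 10 and 7, and without both young 4 and aged 2 they were 5 and 1. Without any single other library, 0 of the replication genes were called by edgeR, and 0 of the mitosis genes except for 1 without aged 1. The replication genes with the smallest p were Mcm4, Gins2, Cdc45 and Cdc6, at 2.11-, 2.42-, 2.49- and 2.55-fold lower in aged HSCs. Of the mitosis genes, Kif23, Cdc20, Cenpe and Prc1 were 2.54-, 3.30-, 3.80- and 3.31-fold lower. The replication list summed to 3938, 3275 and 2252 CPM in aged 1, aged 2 and aged 3, against 6802, 6340 and 5814 CPM in young 4, young 5 and young 6. The mitosis list summed to 1650, 1482 and 586 CPM in the aged libraries, against 5646, 3926 and 3690 CPM in the young libraries. Aged 3 was the lowest and young 4 the highest library on both lists, as in the sum of the 34 genes. The part of cycling cells in the differences of the 34 genes was not tested.

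**Figure D5:**
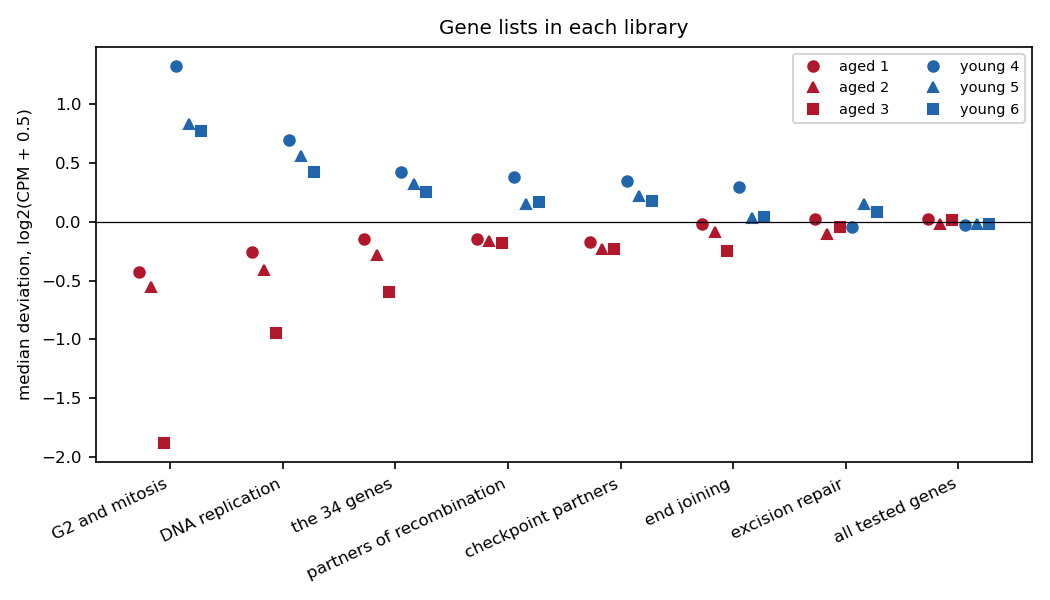
Median deviation from the mean over 6 libraries, in log2(CPM + 0.5), of each gene list in each library; red symbols are aged and blue symbols young libraries. Aged symbols lie below all young symbols for mitosis, replication, the 34 genes, their partners and, by less, end joining. They overlap with them for excision repair. For all tested genes every symbol lies close to 0, with aged symbols (lowest -0.0165) just above young ones (highest -0.0184).

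Markers of multipotent progenitors, which the CD150 and CD48 gates should remove, were also lower in aged HSCs. Of 5 such markers, 3 were called lower (Cd48, Flt3 and Cd34) and 0 higher, and the list summed to 279 to 327 CPM in aged and 440 to 444 CPM in young libraries. Macrophage markers summed to 36.9 to 39.3 CPM in aged and 44.6 to 76.2 CPM in young libraries, with none of 8 called. T-cell markers stayed at or under 0.877 CPM in the aged libraries, against 3.86 CPM in the young libraries; Cd8a was at 0 in all 6 libraries, and Cd4, called lower in aged HSCs, made up most of the young sums. Endothelial and stromal markers summed to 158 to 178 CPM in aged and 115 to 192 CPM in young libraries. Of the 7 tested, Cxcl12 was called lower, where 1.5% of all genes tested were called lower. Col1a1 had 43.1 CPM in young 6 and at most 2.53 CPM in any other library. Kdr had 17.3 ± 4.79 CPM in aged and 6.95 ± 2.62 CPM in young HSCs (SD, n = 3 each). Its groups did not overlap, and it was not called (adjusted p = 0.0782 by edgeR). Granulocyte markers summed to 4.41 to 13.6 CPM in aged and 7.39 to 11.6 CPM in young libraries, erythroid markers to 66.7 to 100.3 CPM in aged and 29.0 to 95.4 CPM in young libraries, and B-cell markers, nearly all Cd79b, to 59.4 to 86.7 CPM in aged and 73.5 to 133 CPM in young libraries. The part of other cells in the differences of the 34 genes was not tested.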

How the data were processed

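The authors deposited 1 table of read counts per gene, with gene coordinates and length, for 6 libraries; the values are whole numbers with no scaling. The SMART-Seq v4 kit, which keeps no strand, and single reads of 51 cycles were used, per the labels' protocols. Trimmomatic, STAR 2.6.0, HTSeq 0.11.1, edgeR and build mm10 are named in the submitters' processing notes; for the annotation and the counting mode, the sources used here give nothing. Groups came from sample titles.

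The test was run in R 4.3.3 with edgeR 4.0.16 (defaults of filterByExpr, TMM, estimateDisp, glmQLFit, glmQLFTest; Benjamini-Hochberg over 13413 genes; age the only term). Standard errors are the log2 fold change divided by the root of the F statistic. Alternatives were DESeq2 1.42.0, limma 3.58.1 voom with and without quality weights, other scalings and filters, and libraries left out. The correction for GC content and length (spline terms of 4 degrees of freedom, GENCODE M21 longest transcripts, known for all 34 genes) and edgeR's other quasi-likelihood version were added after seeing the data. On counts simulated for these libraries, 13233 genes were tested, of which 99 were changed 2-fold and 99 were changed 4-fold. Of the genes changed 4-fold 78.8% were recovered, of those changed 2-fold 5.05%, so changes near 2-fold were often missed there. Fewer genes were changed than the 772 called in the data, and no library was set apart as young 4 is. These shares are therefore not the sensitivity of the reported test. The 34 genes and all lists were chosen with earlier results of these data known. Each of the 34 genes is named; of other lists, up to 4 called genes with the smallest p, or 2 uncalled ones. Cxcl12, Col1a1 and Kdr were named after their values were seen. Read counts limit precision by counting error, and PCR copies are not independent molecules. One gene of the partner list is not reported here.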

Additional observations from a re-analysis of the deposited data

How the results depend on the processing

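Of the 34 genes, 6 were called with the settings reported, 19 by DESeq2, 25 by limma-voom with quality weights, 10 with no filter on low counts, 2 with at least 5 CPM in 3 libraries, where 32 were tested, and 0 to 8 with 1 library left out. Of the 51 partners, 4 were called, and under the same settings 16, 25, 9, 2 and 0 to 7, with 11 after correction for GC content and length. Over all genes, 772 were called, against 1893, 4094, 970, 443 and 74 to 1029, and 1257 after that correction. All calls among the 34 genes were lower in aged HSCs. Each of the 6 called genes was refitted in each other setting, which gave 102 values. The direction was kept in all of them and the call was lost in 40. In these genes no aged library reached a young one, so leaving out libraries could hardly change the direction. Uncalled genes that changed sign were Atm (0.0457) and Atr (0.0581) without scaling factors, and Fanca, Fancc, Fance and Fancg. With 1 library left out these ran from -0.98 to 0.042 for Fanca, -0.0521 to 0.37 for Fancc, -0.28 to 0.54 for Fance and -0.0151 to 0.17 for Fancg, and Fance was at -0.00114 without young 4. With quality weights Fancc was at -0.10, Fance at -0.35 and Fancg at -0.0269, and in the fit corrected for GC content and length Fancc was at -0.0121 and Fancg at -0.0486. The cause was not tested. No paired analysis was possible because aged libraries are numbered 1 to 3 and young ones 4 to 6, so that no number is shared.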
